A study of Mus musculus with 12 samples.

Results

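The genes described here are 10 imprinted genes with roles in the hypothalamus, Ndn, Magel2, Snrpn, Peg3, Dlk1, Nnat, Mest, Grb10, Plagl1 and Cdkn1c. They were found by their gene symbol among the non-control probes of an Agilent mouse array. All 10 were present, through 17 of 41174 probes, and all 17 passed the filter on low values. Hypothalamic RNA of male ICR mice was hybridized to 12 arrays with a single dye, Cy3. ICR is an outbred stock, and each array held RNA of 1 to 3 mice. The study pooled 3 mice for each water pool and each pool of lower intake, and fewer than 3 for each pool of higher intake. Pool size thus overlapped with intake. The mice were 3 weeks old when the experiment began and had 5 days of adaptation to drinking tubes. The 3 water pools came from mice that drank only water. The 9 alcohol pools came from mice offered a tube with 5% or 10% alcohol beside a tube with water, and the labels call them low, early high and late high drinkers, with 3 pools each. The sample labels do not say which concentration a pool received. They place the sacrifice on day 51, whereas the design text has drinking last to day 57.

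An imprinted gene is expressed mainly from the allele inherited from one parent. Differential DNA methylation, set in the germ line and kept in the offspring, marks the alleles, and imprinted genes often lie in clusters under shared control elements. Many are highly expressed in the developing and adult brain, where they bear on growth, feeding, sleep and maternal care, and the hypothalamus is a main site. Cdkn1c is expressed from the maternal allele, Grb10 from the paternal allele in neurons and the maternal allele in most other tissues, and the other 8 mainly from the paternal allele. The arrays measured total RNA of each gene and could not tell the alleles apart. In tissue RNA, fewer cells of a type and less RNA per cell cannot be told apart.

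The sequences below are those of the genes whose levels differed most between the drinker groups, with the promoter of each member that was low on the arrays of late high drinker pools 1 and 2. Each promoter window is a RefSeq window of GRCm38.p6 that runs from 250 bases before to 50 bases after the annotated start, on the strand of the gene. Capitals mark CGCATGCG, a palindrome and thus the same on both strands, which forms the core of the binding site of the transcription factor NRF1. It was noticed in these windows after the levels had been seen. The first base of the match lay 25 bases before the start in Nnat, 23 bases before it in Ndn and 36 bases after it in the Snrpn window shown.
Nnat promoter, chr2:157559828-157560127, plus strand: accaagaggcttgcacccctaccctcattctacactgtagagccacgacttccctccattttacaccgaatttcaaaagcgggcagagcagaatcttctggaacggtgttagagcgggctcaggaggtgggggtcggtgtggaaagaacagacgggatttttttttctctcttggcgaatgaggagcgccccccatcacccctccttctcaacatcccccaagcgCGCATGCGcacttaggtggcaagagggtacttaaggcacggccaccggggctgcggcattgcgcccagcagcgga
Ndn promoter, chr7:62348027-62348326, plus strand: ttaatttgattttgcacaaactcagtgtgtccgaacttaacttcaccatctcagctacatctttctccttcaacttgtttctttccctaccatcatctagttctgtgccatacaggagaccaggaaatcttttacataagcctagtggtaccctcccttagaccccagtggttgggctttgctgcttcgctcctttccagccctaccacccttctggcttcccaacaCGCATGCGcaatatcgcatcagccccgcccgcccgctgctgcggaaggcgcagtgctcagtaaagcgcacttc
Snrpn promoter, chr7:60005150-60005449, minus strand: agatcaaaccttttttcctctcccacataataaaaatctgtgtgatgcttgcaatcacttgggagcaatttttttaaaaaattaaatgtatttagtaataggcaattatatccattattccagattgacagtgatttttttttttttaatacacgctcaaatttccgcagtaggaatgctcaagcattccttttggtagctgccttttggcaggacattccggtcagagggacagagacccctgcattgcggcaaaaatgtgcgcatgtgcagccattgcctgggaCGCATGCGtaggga

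RefSeq windows were matched for 9 of the 10 members, 15 windows in all, and none was matched for Cdkn1c. The palindrome stood in 6 of the 15, namely those of Nnat and Ndn and all 4 of Snrpn, and the windows of Magel2, Peg3, Dlk1, Mest, Grb10 and Plagl1 did not hold it. Across the mouse, 1.87% of 32851 windows and 2.07% of 27025 genes held it. No other motif was searched. The match is a description of letters only. The member windows had a median of 10 CpG against 7 over all windows, a difference that was not tested. They ran from 2 CpG in a Snrpn window to 45 in a Grb10 window, and no Snrpn window held more than 7.

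The probes that carried these levels are 60 bases long, and their positions below refer to mm9, the build named in the scanner output. No mm9 gene models were used here, so their place within exons was not annotated. The Nnat probe is shown by its first 30 bases. The Snrpn probes overlap by 43 bases and differ by A9G and G12A, with positions counted from the 5′ end of the shared stretch and the base of the dimmer probe first. Capitals mark these bases.
Nnat probe, chr2:157387978-157388037: tggatatattcaaccagtaattgaatccca
Ndn probe, chr7:69493847-69493906: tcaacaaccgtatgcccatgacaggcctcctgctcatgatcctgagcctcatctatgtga
Peg3 probe, chr7:6660440-6660499: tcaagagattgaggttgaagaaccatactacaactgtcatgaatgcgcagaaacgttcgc
Snrpn probe, brighter, chr7:67132330-67132389: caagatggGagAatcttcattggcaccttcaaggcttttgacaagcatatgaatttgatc
Snrpn probe, dimmer, chr7:67132347-67132406: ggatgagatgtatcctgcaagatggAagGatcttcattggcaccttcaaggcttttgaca

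Levels are given on the log2 scale, as the background-corrected intensity over the 75th percentile of the same array, so that 0 is the 75th percentile. Levels of different probes cannot be set against each other, since each probe binds with its own strength. The 75th percentile of the intensity lay between 1512 and 1853 on the 12 arrays, no spot was saturated, and between 67.0% and 79.3% of spots were well above background. Each slide carries 4 arrays. All water pools shared slide 1 with pool 1 of the low drinkers. Pools 2 and 3 of the low drinkers shared slide 2 with pools 1 and 2 of the early high drinkers. Pool 3 of the latter shared slide 3 with every late high drinker pool. The scan of slide 1 took place on a later day. Slide and group therefore overlap, and for most members a difference within a slide is given as well. Of the hypothalamic markers, 11 were matched, Avp, Oxt, Hcrt, Pmch and Pomc among them, and all 11 were well above background on all 12 arrays. Their summed level, in multiples of the 75th percentile, ran from 186 to 218 on the water arrays, 197 to 228 in low, 191 to 235 in early high and 205 to 244 in late high drinkers. Low drinker pool 1 stood apart on some genes of pituitary hormones and not on others. It read -0.93 for Gh (growth hormone) against -8.30 to -3.98 on the other 11 arrays, 0.36 for Prl (prolactin) against -8.21 to -0.71, and 5.01 for Pomc, which the pituitary also makes, against 3.27 to 3.73. The pituitary marker Cga was higher on water pool 3, at 3.44 against 2.78, and so was Lhb, at -0.54 against -0.84. Tshb was highest on late high drinker pool 1, at -2.34 against -2.57 on low drinker pool 1. The 5 pituitary markers summed to 12.4 on water pool 3 and 9.40 on low drinker pool 1. Values within slide 1 set low drinker pool 1 against water, and the part of pituitary in them was not tested.

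**Figure D1:**
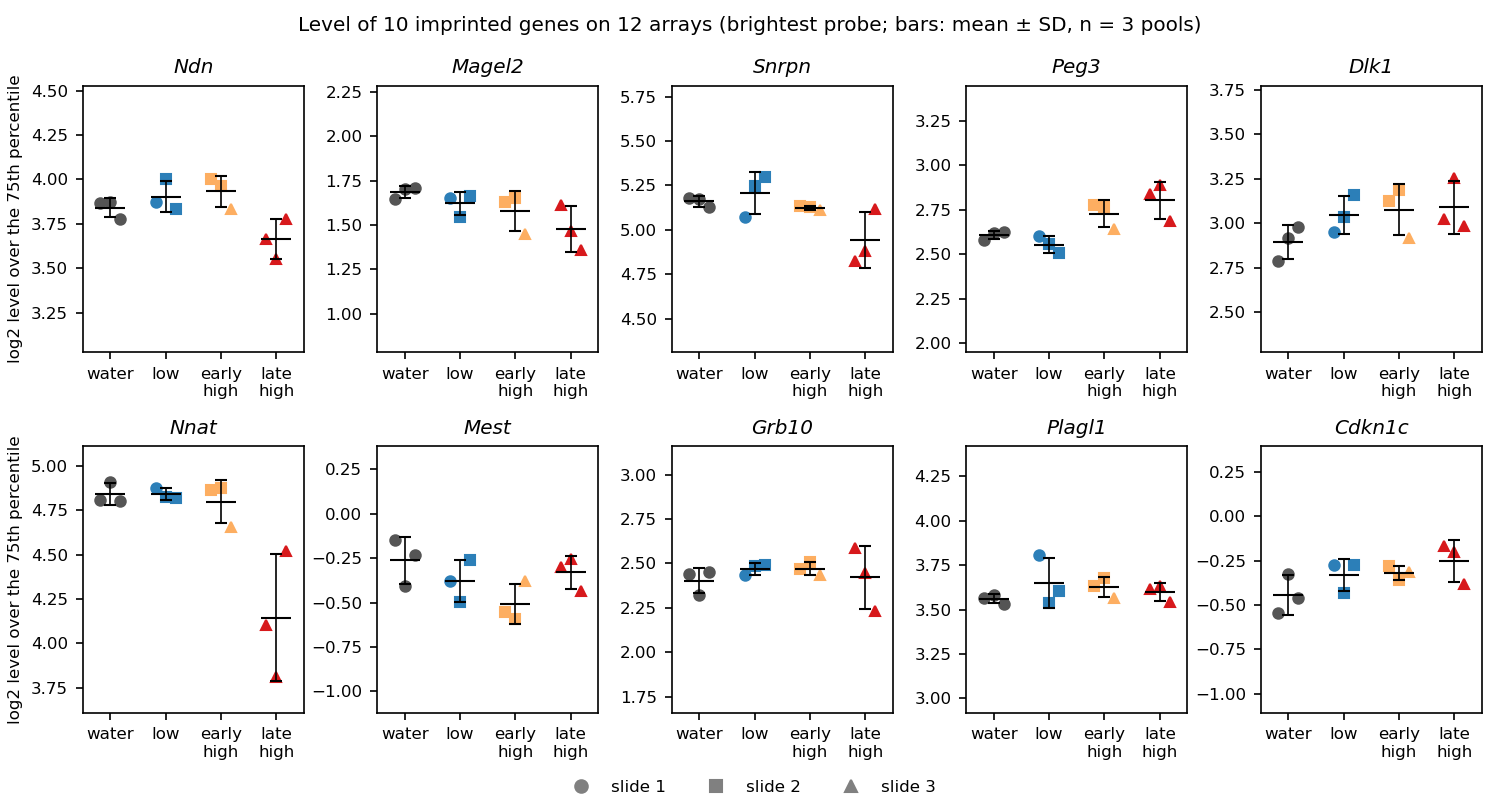
Level of each of the 10 imprinted genes (log2 intensity over the 75th percentile of the array, brightest probe) in 4 groups of 3 pools. Points are arrays with the slide as symbol, bars are mean ± SD, and every panel spans the same log2 range; Nnat stands apart on the late high drinker arrays, where it lay between 3.81 and 4.52 against 4.66 to 4.91 on the others.

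Across the 4 groups, 4 of 10 members passed an unadjusted p of 0.05 with the moderated F test of limma (Nnat, Peg3, Ndn and Snrpn), where 14.8% of 32335 probes did. After Benjamini-Hochberg adjustment 0 of 10 passed, against 0.186% of probes, and 1 of 10 without late high drinker pool 3. With slide as a fixed block 0 members passed the unadjusted p, and with slide as a random block 2. Only 2 passed when pool 1 or pool 2 of the early high drinkers, or pool 2 of the late ones, was left out. The pattern of Nnat, Ndn and Snrpn was a lower level in late high drinkers, and that of Peg3 a higher level in early and late high drinkers. Over the 12 arrays the members had a median SD of 0.13, from 0.08 for Plagl1 to 0.35 for Nnat, against 0.14 over all 29521 probes measured on every array. These probes were not matched to the members by level. Of them, 15863 had a mean level under -1, where no member's brightest probe lay. Deviations there had an SD between probes of 0.24 to 0.55 per array, against 0.07 to 0.14 above level 3. The share of variance between the 3 slides had a median of 42.5% over the members and 31.7% over all probes. Between the 4 groups these medians were 48.3% and 35.5%.

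Nnat encodes neuronatin, a small proteolipid of the endoplasmic reticulum membrane that bears on calcium signaling and hormone secretion. Its probe, on chromosome 2, read intensities between 25629 and 50955. The levels were 4.81, 4.91 and 4.80 on the water arrays, 4.88, 4.83 and 4.82 in low drinkers, 4.86, 4.87 and 4.66 in early high drinkers, and 4.10, 3.81 and 4.52 in late high drinkers. Every late high drinker array lay below all 9 others, as 5.14% of probes did, and pools 1 and 2 lay far below pool 3. Early high drinker pool 3, on the same slide, was the lowest of the other 9. The mean of late high drinkers was 4.14 ± 0.36 (SD, n = 3) and that of early high drinkers 4.80 ± 0.12 (SD, n = 3). Late was lower than early by a log2 difference of -0.65 (standard error 0.15), or -36.4% in linear terms, with an unadjusted p = 0.00145 and an adjusted p = 0.316 with limma. The exact permutation test, two-sided, gave p = 0.10, the smallest that 3 arrays against 3 allow. Within slide 3 the late arrays lay -0.51 from early high drinker pool 3. Over the alternatives run, the adjusted p of this difference ranged from 0.0129 to 0.922. It was under 0.05 only without late high drinker pool 3, where the difference was -0.84.

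Ndn, Magel2 and Snrpn lie in the cluster on mouse chromosome 7 that corresponds to the Prader-Willi region of man. Ndn encodes necdin, a MAGE family protein of postmitotic neurons. Its levels were 3.87, 3.88 and 3.78 on the water arrays, 3.87, 4.002 and 3.84 in low, 4.002, 3.96 and 3.83 in early high and 3.67, 3.55 and 3.78 in late high drinkers. The late high drinker arrays were the lowest 3 of the 12, a pattern found for 5.14% of probes, although pool 3 lay only just below water pool 3. The late mean was 3.66 ± 0.11 (SD, n = 3) and the early mean 3.93 ± 0.09 (SD, n = 3). The log2 difference was -0.27 (standard error 0.08, unadjusted p = 0.00633, adjusted p = 0.316 with limma), and within slide 3 it was -0.17. With slide as a fixed block Ndn did not pass (unadjusted p = 0.165 with limma).

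Snrpn encodes SmN, a core protein of the spliceosome that is most abundant in neurons. On the brighter probe the levels were 5.18, 5.17 and 5.13 in water, 5.07, 5.25 and 5.30 in low, 5.13, 5.13 and 5.11 in early high and 4.82, 4.88 and 5.12 in late high drinkers. Late high drinker pools 1 and 2 were the lowest, and pool 3 lay among the early high drinkers. The overlapping probe showed the same order of these arrays, with 4.30 and 4.38 on late pools 1 and 2 and between 4.55 and 4.71 on the other 10. For late against early, the brighter probe differed by -0.18 (unadjusted p = 0.0570 with limma) and the dimmer one by -0.21 (unadjusted p = 0.0348 with limma). Within slide 3 these differences were -0.17 and -0.14. These probes share sequence and are not separate evidence.

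Magel2 encodes a MAGE protein that promotes the ubiquitin ligase used in endosomal sorting and is strongest in the hypothalamus. Its probe (chr7:69526159-69526218) gave 1.65, 1.70 and 1.71 in water, 1.65, 1.54 and 1.67 in low, 1.63, 1.65 and 1.45 in early high and 1.61, 1.46 and 1.36 in late high drinkers. All 9 alcohol arrays were below the water mean, but they overlapped with the water arrays. Alcohol differed from water by -0.13 (standard error 0.07, unadjusted p = 0.0976 with limma). On slide 3 early and late arrays differed by only 0.03, and 66.8% of the variance of Magel2 lay between slides, the highest of the members.

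**Figure D2:**
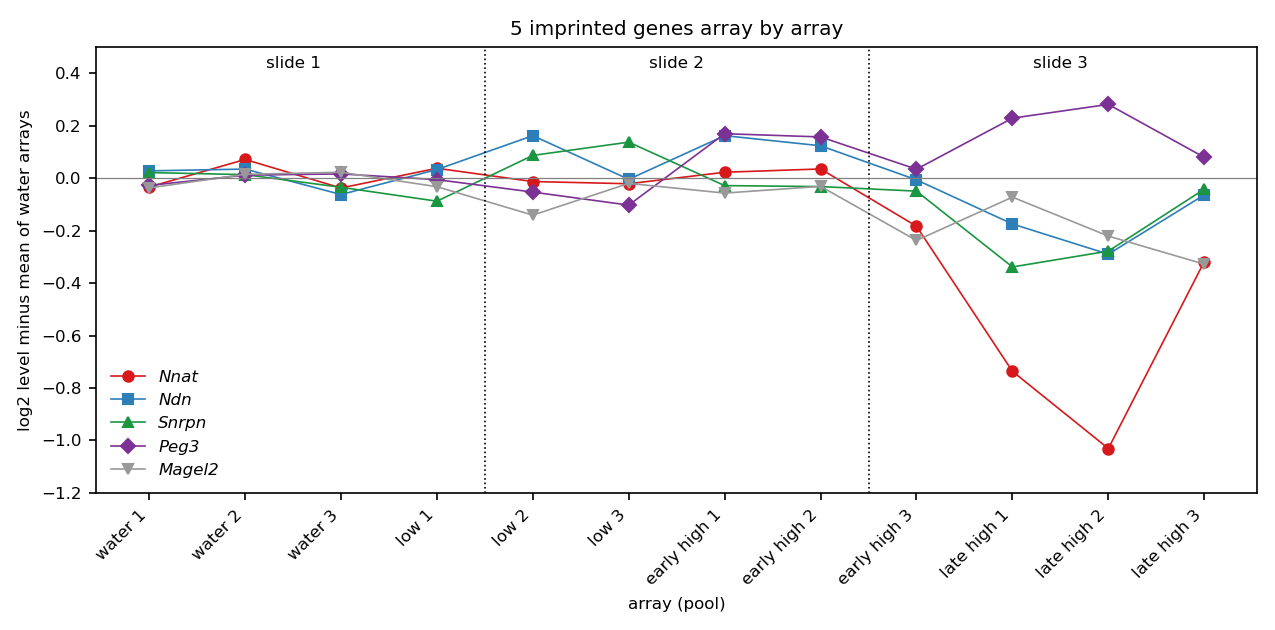
Level of 5 imprinted genes on each array (log2, minus the mean of the 3 water arrays), with the arrays in the order of the 3 slides and dotted lines between slides. Nnat, Ndn and Snrpn were low on late high drinker pools 1 and 2, where Peg3 was at its highest, and Magel2 was lowest on late high drinker pool 3.

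The markers of other tissues on these arrays were as follows. On late high drinker pools 1 and 2 the summed hypothalamic markers were 228 and 244, and pool 2 had the highest sum of all 12 arrays. The brightest probes carry this sum, and the markers did not move as one. On pool 2 Avp (5.11) and Oxt (5.61) were at their highest of the 12 arrays, and Hmx2 (-1.90) was at its lowest. The 6 thalamic markers, all well above background on every array, summed to 12.5 and 10.8 on these pools, 22.2 on late pool 3 and 5.44 to 15.5 on the early high drinker arrays. The blood markers summed to 74.7 to 102 in late and 104.7 to 131.8 in early high drinkers. The 5 pituitary markers summed to 3.93 to 6.44 in late and 0.91 to 3.37 in early high drinkers, and 2 of the 5 were higher in late at an unadjusted p of 0.05. At this p, 1 thalamic marker was higher in late, and 1 marker each of blood, choroid plexus, meninges and striatum was lower. The part of these tissues in the values was not tested. The median deviation of the 2217 probes with a mean level above 3 was between 0.01 and 0.02 on the late high drinker arrays. Their SD between probes was 0.126 on late pool 1 and 0.139 on late pool 2, the highest of the 12 arrays. On the same slide it was 0.0991 on late pool 3 and 0.0743 on early high drinker pool 3. For the 4788 probes with a mean level of 1 to 3 it was 0.1715 and 0.1695 on late pools 1 and 2, again the highest. The part of this wider spread in the member values was not tested.

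Peg3 encodes a zinc finger protein that acts as a transcriptional regulator and bears on maternal and feeding behavior. On its brightest probe the levels were 2.58, 2.62 and 2.62 in water, 2.60, 2.55 and 2.51 in low, 2.78, 2.76 and 2.64 in early high and 2.84, 2.89 and 2.69 in late high drinkers. Every high drinker array lay above every low drinker and water array, as 0.451% of probes did, although early high drinker pool 3 cleared the highest water array only narrowly. With quantile normalization this no longer held, as early high drinker pool 3 read 2.646 and water pool 3 read 2.651. High drinkers averaged 2.77 ± 0.09 (SD, n = 6) and low drinkers 2.55 ± 0.05 (SD, n = 3). The log2 difference was 0.21 (standard error 0.06, unadjusted p = 0.00443, adjusted p = 0.163 with limma), or 15.8% in linear terms. The exact permutation test, two-sided over all 84 ways to pick 3 of 9 arrays, gave p = 0.0119, the smallest it allows. Within slide 2 early exceeded low by 0.24, and within slide 3 late exceeded early by 0.16.

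The other Peg3 probes did not show this separation. A dimmer probe (chr7:6658774-6658833) gave 1.39 ± 0.23 (SD, n = 3) in low and 1.45 ± 0.21 (SD, n = 6) in high drinkers, with overlapping arrays. The dimmest (chr7:6674944-6675002) read intensities of 24 to 75 and was well above background on 10 of 12 arrays. With the mean of the 3 probes, high exceeded low by 0.08, and this did not pass an unadjusted p of 0.05.

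For high against low drinkers 3 of 10 members passed an unadjusted p of 0.05 (Peg3 higher, Nnat and Snrpn lower), where 3.32% of probes were higher and 11.8% lower, and 0 of 10 passed after adjustment, against 0.294% of probes. Nnat differed by -0.37 (standard error 0.13, unadjusted p = 0.0171, adjusted p = 0.247 with limma), with an exact permutation p = 0.190. Without late high drinker pools 1 and 2, an alternative chosen after the data had been seen, this difference was -0.18. There late high drinker pool 3 alone stands for the late group, with the weight of all 3 early pools, and is assumed to vary like the other groups. Within slide 2 the early arrays lay 0.05 above the low ones for Nnat, the opposite sign. Under a fixed slide block Nnat was at -0.21 and did not pass. The adjusted p ranged from 0.0490 to 0.723 over the alternatives, the lowest without late high drinker pool 3. Snrpn differed by -0.17 (standard error 0.07, unadjusted p = 0.0403, adjusted p = 0.311 with limma), and without these pools by -0.08, which no longer passed. With 1 array left out, Snrpn passed in 2 of 12 cases, without low drinker pool 1 and without late high drinker pool 3, and it did not pass on the mean of its probes. Within slide 2 early lay -0.14 from low on the brighter Snrpn probe and 0.08 above it on the dimmer one, and with slide as a fixed block Snrpn did not pass. For high against low, the exact permutation test gave Snrpn p = 0.119 on the brighter probe. On the dimmer probe high differed from low by -0.06. Without scaling between the arrays the median of all probes was 0.07 in place of -0.05, and Nnat, at -0.24, and Snrpn, at -0.05, did not pass. The difference of Peg3 was then 0.34. All 5 pituitary markers tested were lower in high than in low drinkers at an unadjusted p of 0.05, although Gh was well above background on only 7 and Prl on only 6 of 12 arrays, with low drinker pool 1 the highest for both. The sum of the 5 was 6.90 to 9.40 in low, 0.91 to 3.37 in early high and 3.93 to 6.44 in late high drinkers, beside 3.25 to 12.4 in water. Lower at that p were also 2 of 6 choroid plexus, 2 of 4 cortex and 2 of 4 striatum markers, beside 1 hypothalamic and 1 oligodendrocyte marker that were higher. The part of these markers in the member values was not tested.

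For late against early high drinkers 2 of 10 members passed an unadjusted p of 0.05, Nnat and Ndn, both lower, where 8.06% of 32373 probes were lower and 4.28% higher. After adjustment 0 probes passed with limma, against 3996 at the unadjusted p. Without early high drinker pool 3 this count was 191 and without late high drinker pool 3 it was 111. The members had a median difference of -0.04 and all probes one of -0.03. Without scaling between the arrays, the median of all probes moved to 0.12, Nnat differed by -0.50 and Ndn by -0.11, and Ndn no longer passed, while Peg3, at 0.23, and Mest, at 0.33, did. Under a fixed slide block Nnat was the member that passed. Leaving out 1 array at a time kept Nnat between -0.84 and -0.49 and Ndn between -0.33 and -0.21.

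**Figure D3:**
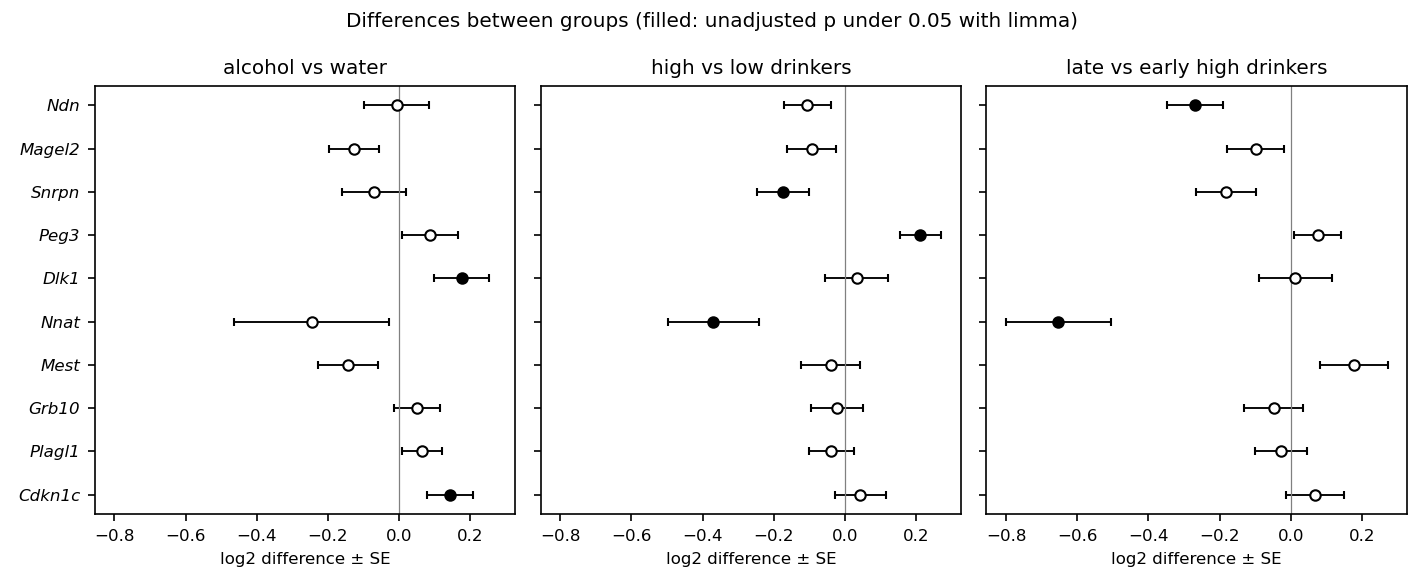
Log2 difference of each member (points, with limma standard errors as bars) for alcohol against water, high against low drinkers and late against early high drinkers. Filled points had an unadjusted p under 0.05; Nnat in late against early, at -0.65, was the largest difference shown and no member passed after adjustment with all arrays in the fit.

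The comparison of all alcohol with water pools asks whether drinking of any pattern went with a different level. At an unadjusted p of 0.05, 2 of 10 members differed, Dlk1 and Cdkn1c, both higher, where 5.53% of 32376 probes did, 3.85% higher and 1.68% lower. After adjustment 0 of 32376 probes passed with limma, against 1789 at the unadjusted p, and 0 with the methods' t-test. With water pool 1, low drinker pool 3, early high drinker pool 1 or late high drinker pool 2 left out, 0 of 10 members passed the unadjusted p. With slide or scan day as a fixed block neither Dlk1 nor Cdkn1c passed, and Plagl1 did. Without low drinker pool 1 the difference was 0.04 for Plagl1, 0.19 for Dlk1 and 0.14 for Cdkn1c, of which Dlk1 passed. The median difference over all arrays was 0.02 over the members and 0.03 over all probes, with 5 members higher and 5 lower in alcohol.

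Dlk1 encodes a transmembrane protein with EGF-like repeats that resembles Notch ligands and is made by hypothalamic neurons. On its brighter probe (chr12:110698667-110698726) the water arrays read 2.79, 2.92 and 2.98, and the 9 alcohol arrays ran from 2.91 to 3.26 with a median of 3.04. All 9 lay above the water mean and 7 above every water array, so the groups overlapped. The log2 difference was 0.18 (standard error 0.08, unadjusted p = 0.0425, adjusted p = 0.819 with limma), and an exact permutation test over 220 ways, two-sided, gave p = 0.0409. The other probe (chr12:110698428-110698487) differed by 0.15 (unadjusted p = 0.187 with limma). Within slide 1, low drinker pool 1 lay 0.05 above the water arrays.

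Cdkn1c encodes the cyclin-dependent kinase inhibitor p57Kip2. Its probe (chr7:150644753-150644812) gave -0.54, -0.32 and -0.46 in water and, over the alcohol arrays, a range of -0.43 to -0.17 with a median of -0.28. All 9 alcohol arrays were above the water mean and 6 above every water array. The difference was 0.14 (standard error 0.06, unadjusted p = 0.0476, adjusted p = 0.819 with limma), with an exact permutation p = 0.0455. With 1 array left out, this difference ranged from 0.093 to 0.202. On slide 1 low drinker pool 1 exceeded the water arrays by 0.17. The group means ran from -0.44 ± 0.11 in water through -0.33 ± 0.09 in low and -0.32 ± 0.04 in early high to -0.25 ± 0.12 in late high drinkers (SD, n = 3 each), and neighbors in this order lay within their spread.

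Grb10 encodes an adaptor that binds the insulin and IGF1 receptors and dampens their signal. Its brightest probe (chr11:11830965-11831024) had means of 2.40 ± 0.07 in water, 2.47 ± 0.03 in low, 2.47 ± 0.04 in early high and 2.42 ± 0.18 in late high drinkers (SD, n = 3 each). A dimmer probe (chr11:11870574-11870633) went the other way. It read -0.87, -0.85 and -0.90 in water and -1.11 to -0.90 in alcohol, with every alcohol array below every water array, early high drinker pool 3 only narrowly, as 0.325% of probes were. That difference was -0.11 (standard error 0.05, unadjusted p = 0.0460, adjusted p = 0.819 with limma). The third probe, with intensities of 134 to 184, gave -0.02.

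Plagl1 encodes a zinc finger transcription factor, also called Zac1, that restrains proliferation and regulates other imprinted genes. The brighter of its probes (chr10:12851280-12851339) was the steadiest of the members, with means of 3.56 ± 0.03 in water, 3.65 ± 0.14 in low, 3.63 ± 0.06 in early high and 3.60 ± 0.05 in late high drinkers (SD, n = 3 each). Low drinker pool 1, the pool with the highest Gh, Prl and Pomc but not the highest Cga, Lhb or Tshb, was the highest array, at 3.81. It lay 0.25 above the water arrays on slide 1, and with slide as a fixed block, where this array alone stands against water, the alcohol difference of 0.06 became 0.25 (unadjusted p = 0.0103 with limma). The dimmer probe (chr10:12849470-12849529), with intensities of 317 to 453, read -2.32, -2.15 and -2.14 in water, -1.94, -2.20 and -2.22 in low, -2.26, -2.35 and -2.40 in early high and -2.41, -2.37 and -2.50 in late high drinkers. On that probe every high drinker array was below every low drinker array, as 2.95% of probes were, with a difference of -0.26 (standard error 0.08, unadjusted p = 0.00660, adjusted p = 0.186 with limma). The water arrays overlapped with the high drinkers. Within slide 2 early lay -0.10 from low. On the brighter probe high differed from low by -0.04 and did not pass, and alcohol differed from water by 0.06 on the brighter and -0.09 on the dimmer probe.

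Mest encodes a protein of the alpha/beta hydrolase fold family that is known from growth and maternal behavior. Its probe (chr6:30698279-30698338) had means of -0.26 ± 0.13 in water, -0.38 ± 0.12 in low, -0.51 ± 0.11 in early high and -0.33 ± 0.09 in late high drinkers (SD, n = 3 each). Alcohol differed from water by -0.14 (standard error 0.08, unadjusted p = 0.118 with limma), and 7 of 9 alcohol arrays lay below the water mean. Without water pool 1 this Mest difference was -0.09, and without water pool 2 it was -0.22 and passed (unadjusted p = 0.0440 with limma).

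Neighbors within the imprinted clusters were taken next. Blcap, whose probe lies 5783 bases from that of Nnat (chr2:157382135-157382194), encodes a small membrane protein, and Nnat sits within its intron. It read 5.25 ± 0.07 in water, 5.31 ± 0.05 in low, 5.29 ± 0.05 in early high and 5.31 ± 0.08 in late high drinkers (SD, n = 3 each) and the groups lay within their spread. Late differed from early by 0.02 (standard error 0.06) on this probe. A dim Blcap probe (chr2:157383518-157383577) read -2.43, -2.65 and -2.43 in late high drinkers and -2.34 to -1.99 on the other 9 arrays, so that every late array was below all others, as 5.14% of probes were (late against early -0.22, standard error 0.10, unadjusted p = 0.0513 with limma). The third (chr2:157390091-157390150), also dim, differed by 0.09. Copg2, a subunit of the coatomer of Golgi vesicles, runs toward Mest from the opposite strand, and its brightest probe begins 175 bases past that of Mest (chr6:30698514-30698573). It gave 2.14, 1.94 and 2.11 in water, 2.21, 2.07 and 2.02 in low, 1.83, 1.92 and 1.85 in early high and 1.59, 1.63 and 1.72 in late high drinkers. All 6 high drinker arrays lay below all low drinker and water arrays, as 0.823% of probes did, and the late arrays below the early ones. High differed from low by -0.34 (standard error 0.07, adjusted p = 0.0730 with limma), and its overlapping probe by -0.36. The third probe (chr6:30840605-30840664) was dim and gave -0.67.

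Usp29, which shares a promoter region with Peg3 and runs the opposite way, had 2 probes. The bright one (chr7:6919806-6919865) read 3.85 ± 0.01 in water, 3.95 ± 0.06 in low, 3.87 ± 0.05 in early high and 3.80 ± 0.11 in late high drinkers (SD, n = 3 each). The dimmer one (chr7:6683435-6683494) lies near Peg3 and gave 0.56, 0.28 and 0.19 in water, 0.33, 0.48 and 0.45 in low, 0.56, 0.69 and 0.46 in early high and 0.83, 0.91 and 0.70 in late high drinkers, with high above low by 0.27 (standard error 0.09, unadjusted p = 0.0140, adjusted p = 0.234 with limma). Water pool 1 lay above every low drinker array. Zim1, beside Peg3, was dim, with group means from -3.83 to -3.70. Meg3, the noncoding RNA downstream of Dlk1 that is expressed from the maternal allele, read 4.72 ± 0.09, 4.60 ± 0.05, 4.78 ± 0.05 and 4.67 ± 0.12 in water, low, early high and late high drinkers (SD, n = 3 each) on its brightest probe. A second Meg3 probe (chr12:110797172-110797231) read 3.92, 4.06 and 4.03 in late high drinkers and 4.12 to 4.26 on the other 9 arrays, with every late array the lower, as for 5.14% of probes (late against early -0.15, standard error 0.06, unadjusted p = 0.0326, adjusted p = 0.372 with limma). The third (chr12:110787974-110796459) differed by -0.16 with overlapping arrays. Peg12, a regulator of Wnt signaling beside Magel2, had group means between -1.28 and -1.15. Mkrn3, a ring finger protein that restrains puberty, was dim and read -2.52 on water pool 3 against -5.80 to -4.67 on the other 11 arrays.

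**Figure D4:**
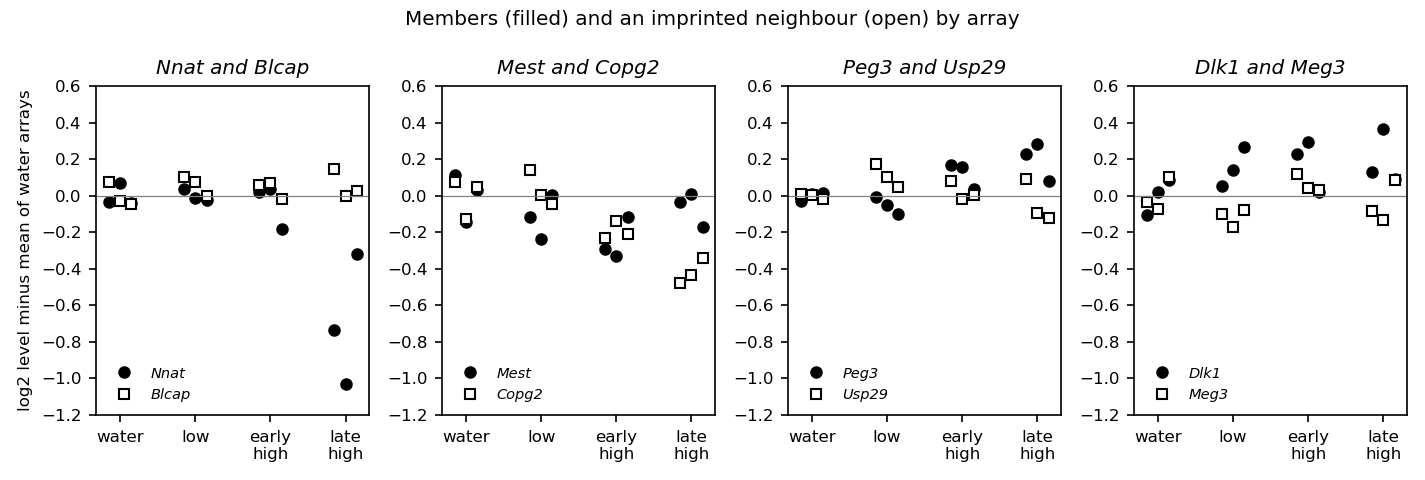
Level of 4 members (filled circles) and an imprinted neighbor (open squares, brightest probe) on each array, in log2 units minus the mean of the water arrays, by group. Nnat was low in late high drinkers, the bright Blcap probe lay within the spread of the groups, and Copg2 was lowest there and Mest was not.

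Of 48 other imprinted genes listed, 44 were on the array and 42 were tested. Across the 4 groups 8 of 42 had an unadjusted p under 0.05 on the brightest probe, where 14.8% of all probes did, and 0 passed after adjustment with limma. In high against low drinkers 2 were higher and 7 lower at an unadjusted p of 0.05, beside 3.32% and 11.8% of all probes. In late against early 1 was higher and 2 lower, beside 4.28% and 8.06%, and in alcohol against water 2 were higher and 0 lower, beside 3.85% and 1.68%. The median differences over the 42 were -0.04, -0.08 and 0.03, beside -0.05, -0.03 and 0.03 over all probes.

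The 8 were Copg2, Zrsr1, Pon2, Dio3, H19, Igf2r, Asb4 and Commd1. Zrsr1, a gene related to a splicing factor, read 3.76 to 3.97 on the other 9 arrays and was higher on every late high drinker array, up to 4.16, as 2.71% of probes were, with a late against early difference of 0.22 (standard error 0.07). Commd1, in whose intron Zrsr1 lies and whose product takes part in copper handling, had means of 1.56, 1.59, 1.61 and 1.73 in water, low, early high and late high drinkers. Late differed from early by 0.12 on this Commd1 probe and by -0.05 and -0.17 on the dimmer ones. Igf2r, the receptor that clears IGF2, had means of 1.34, 1.19, 1.29 and 1.44 in the same order. Asb4, part of a ubiquitin ligase and strong in the hypothalamus, had 1.25, 1.26, 1.15 and 1.02, and late differed from early by -0.13 on this probe and -0.16 on a dimmer one. Pon2, a paraoxonase, had -0.64, -0.67, -0.87 and -1.01. Late differed from early by -0.14 on this Pon2 probe, and by -0.15, 0.12 and 0.22 on the dimmer ones. Dio3, the enzyme that inactivates thyroid hormone, was dim and highest in low drinkers, at -2.87 ± 0.69 (SD, n = 3) against -3.83 ± 0.11 (SD, n = 3) in water. Low drinker pool 2 was the highest array for Dio3, at -2.09 against -3.35 and -3.18 in the other low drinker pools, and on this array the 15863 probes with a mean level under -1 had a median deviation of 0.25. Its part in the Dio3 values was not tested. H19, a noncoding RNA, was also dim, at -4.49 ± 0.72 in early and -5.54 ± 0.29 in late high drinkers (SD, n = 3 each), but this probe was well above background on only 2 of the 3 late arrays, so no fold is given. Slc22a18 and Slc22a3, both transporters of the organic cation family, were the pair higher in alcohol than in water, Slc22a18 by 0.35 (standard error 0.14). The second Slc22a18 probe differed by -0.08 (unadjusted p = 0.656 with limma). The Slc22a3 probe had no value in early high drinker pool 1 and was well above background on 9 of 12 arrays. Only 1 of the 3 low drinker arrays was among these, so no fold is given. Slc22a2 and Klf14 had low means in alcohol but were well above background on only 5 and 7 arrays, so no fold is given.

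The gene most like each member over the 12 arrays was sought among 18829 named probes well above background on all arrays. For Nnat it was Fam171a2 (Pearson r = 0.980, Spearman rho = 0.692), which read 3.66 and 3.46 on late high drinker pools 1 and 2 and 3.92 to 4.17 on the other 10. For Snrpn it was Slc25a4, the mitochondrial carrier of ADP and ATP (r = 0.970, rho = 0.895), with 5.28 and 5.32 on those pools and 5.47 to 5.68 on the rest. Ndn was most like Msx1, a homeobox factor (r = 0.947, rho = 0.930), and Peg3 most like Zmiz2, a coregulator of transcription (r = 0.952, rho = 0.979). For the other 6 members the highest r lay between 0.850 (Plagl1 with Car3) and 0.909 (Dlk1 with Fam204a). These are the highest values among many probes that share arrays and slides, so they are given as a description.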

How the data were processed

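Hypothalamic RNA of 12 mouse pools was measured on Agilent arrays. The authors deposited scanner output with background-corrected signal intensities on a linear scale, made with Agilent Feature Extraction (10.5.1.1 per the file headers), and a table of the same intensities, of which 99.6% of values equaled the scanner values within a relative 0.001. The methods name no scaling between arrays. Each intensity was taken to log2 minus the 75th percentile of 43379 non-control spots. Spots marked as non-uniform or with a signal under 2 times its error were left out, and spots of a probe were averaged. Probes with a value on over 50% of water and of alcohol arrays were tested, 32376 for alcohol against water. Names are those of the array files, or of RefSeq by accession (25263 of 41174 probes).

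Limma 3.58.1 in R 4.3.3 (lmFit, eBayes, Benjamini-Hochberg over all probes) compared 9 alcohol with 3 water arrays, and a model of 4 groups gave the F test, 6 high against 3 low drinkers and 3 late against 3 early high drinkers. Each member was taken on its probe of highest mean. In the last comparisons, members at an unadjusted p under 0.05 were named with their differences. Other imprinted genes were named at such a p in alcohol against water or over 4 groups, as the 3 largest rises and falls, or as neighbors. The gene most like a member was that of highest r. Replicates are pools of mice, and the number of arrays limits the precision. Members and lists were chosen with earlier results of these data known. In simulated data with 200 probes moved by 1 on the log2 scale, alcohol against water recovered 168 and called 5 unchanged probes (of 32376), the 4 groups 143 and 11 (of 32335), high against low 161 and 13 (of 32335) and late against early 144 and 10 (of 32373). Alternatives covered background correction (normexp, offset 50), scaling, the deposited table, filters, slide, scan day and replicate blocks, the methods' t-test, probe choice and each array left out. Figures were drawn with matplotlib 3.10.9. Rtl1, Peg13, Nespas and Kcnk9 were not analysed here, nor were the real-time PCR and behavior of the study.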

Additional observations from a re-analysis of the deposited data

Results flagged for a closer look

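Of the 10 members, Grb10 on its brightest probe had an alcohol array that stood apart from the other 8. Late high drinker pool 3 read 2.23, the nearest array 2.43, and this gap was 0.565 of the whole range of the 9 alcohol arrays, above the limit of Dixon's test for 9 values. With 10 members tested, about 1 in 20 such groups is marked by chance. Without this array the alcohol against water difference of Grb10 was 0.078, the highest of those with 1 array left out. With all arrays it was 0.051, and the lowest with 1 array left out was 0.0091.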

How the results depend on the processing

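Of the alcohol against water differences of the 10 members, those of Magel2, Snrpn, Dlk1, Mest and Cdkn1c kept their direction under every alternative. Ndn, at -0.0065, turned to 0.024 with normexp, to 0.033 with slide or scan day as a fixed block, to 0.0037 with slide as a random block and to 0.058 without late high drinker pools 1 and 2, and ranged from -0.038 to 0.029 with 1 array left out. With slide or scan day as a fixed block, which leaves low drinker pool 1 as the alcohol array set against water, Nnat turned to 0.038 and Peg3 to -0.0056. With the mean of all probes of a gene, Grb10 turned to -0.026 and Plagl1 to -0.012. The high against low differences of Peg3, Nnat and Snrpn and the late against early differences of Nnat and Ndn kept their direction under every alternative run.

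The count of members at an unadjusted p of 0.05 in alcohol against water (2) was 1 with normexp, quantile normalization, the deposited table, no filter (Dlk1 in each), the mean of probes (Cdkn1c) and slide or scan day as a fixed block (Plagl1), and 0 without scaling, with slide as a random block and without late high drinker pools 1 and 2. Leaving out 1 array gave 0 to 2. Across the 4 groups (4) it was 2 without scaling, with slide as a random block and with the mean of probes, 0 with slide as a fixed block, and 2 to 4 with 1 array left out. In high against low (3) it was 1 without scaling and with slide as a fixed block, and 2 to 3 with 1 array left out. In late against early (2) it was 1 with slide as a fixed block (Nnat), 3 without scaling (Mest, Nnat and Peg3), 3 with quantile normalization, the deposited table, scan day as a block and the mean of probes (Ndn, Nnat and Snrpn), and 2 to 3 with 1 array left out.

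The count of all probes at an adjusted p of 0.05 moved more. In alcohol against water (0) it was 4 with slide and 1 with scan day as a fixed block, and 0 with any 1 array left out. Across the 4 groups (60) it was 128 with normexp, 18 without scaling, 35 with slide as a fixed and 17 as a random block, 1557 with scan day as a block, and 0 with quantile normalization, without the filter or over probes well above background on all arrays. It ranged from 0 to 1988 with 1 array left out, the highest without low drinker pool 1. In high against low (95) it was 507 with normexp, 1 with quantile normalization, 50 without scaling, 161 with slide as a fixed and 34 as a random block, 2837 with scan day as a block, and 0 without the filter, over probes well above background on all arrays or without late high drinker pools 1 and 2. It ranged from 1 to 2826 with 1 array left out. In late against early (0) it was 5 with quantile normalization, 1 without scaling, 2 over probes well above background on all arrays, 26 with slide and 11 with scan day as a fixed block, and 0 to 191 with 1 array left out. The cause was not tested.

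The replicate number did not pair the pools, since the 18 pairs of arrays with the same number had correlations of their deviations from -0.09 to 0.18. With the replicate number as a block, the count of members in alcohol against water was 1, that across the 4 groups 2, and the counts of all probes at an adjusted p across the 4 groups and in high against low both 0.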

Other observations

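Some imprinted genes outside the naming rule stood out once their values were seen. Rian, a noncoding RNA downstream of Meg3 and Dlk1, read 3.88 and 3.98 on late high drinker pools 1 and 2 and between 2.55 and 3.26 on the other 10 arrays (late against early 0.65, standard error 0.32, adjusted p = 0.443 with limma). A second, dim Rian probe did not set these arrays apart, with -4.45 to -4.40 in late and -4.81 to -4.20 in early high drinkers. Late high drinker pools 1 and 2 are those on which Nnat, Ndn and Snrpn were lowest. Nap1l5, a nucleosome assembly protein relative expressed from the paternal allele, read 5.58 to 5.65 in water and 5.77, 5.83 and 5.94 in late high drinkers (alcohol against water 0.15, standard error 0.07, adjusted p = 0.819 with limma). Igf2, a growth factor whose brain RNA comes largely from choroid plexus and meninges, spread widely within groups, from 0.30 to 1.90 among the early high drinker pools.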
